A study of Homo sapiens with 12 samples.

Results

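The NR4A nuclear receptors are 3 genes, NR4A1, NR4A2 and NR4A3, taken by Ensembl identifier from 58051 genes in deposited tables of gene-body and exon counts and by transcript from estimated counts per library. They encode orphan members of the nuclear receptor family, DNA-binding transcription factors whose ligand pocket is closed by bulky side chains, so that their activity is set largely by how much protein is made. They are immediate-early genes: growth factors, cyclic AMP and other signals switch on their transcription within minutes without new protein synthesis, through factors such as CREB, SRF and MEF2. NR4A1 (Nur77) and NR4A2 (Nurr1) bind DNA alone, as dimers or with a retinoid X receptor, whereas NR4A3 (NOR-1) is not known to pair with one, and in colon and other carcinoma cells the family has been linked to growth and cell survival.

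The 12 RNA-seq libraries come from the colon carcinoma cell line HCT116, of human origin, and form 6 groups of 2. An siRNA, a small double-stranded RNA that directs the breakdown of its target message, was given against PFDN2 (siPFDN2) or PFDN5 (siPFDN5), which encode subunits of the prefoldin chaperone, or as a control (siControl). In all groups 24 h of siRNA preceded 48 h without serum, and cells were taken either before serum or 90 min after it. All 6 groups therefore share transfection and starvation, no group was left unstarved, and the 2 libraries of a group are numbered but not described as separate cultures, so p-values measure the spread between libraries, which may be technical.

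NR4A1 (ENSG00000123358) lies on the plus strand of chromosome 12, from 52022832 to 52059507 in GRCh38. NR4A2 (ENSG00000153234) lies on the minus strand of chromosome 2, from 156324432 to 156342348, and NR4A3 (ENSG00000119508) on the plus strand of chromosome 9, from 99821855 to 99866891. No other annotated gene overlaps NR4A2 or NR4A3. The long noncoding gene AC025259.3 lies wholly inside NR4A1 on the other strand, over 1045 bases from 52058459 to 52059503, and counting ignored strand and gave a fragment to every gene it touched. NR4A1 counts can therefore hold AC025259.3 reads and the reverse. The transcripts of any 2 of the 3 genes share no run of 31 bases, and their longest shared runs are 17 to 20 bases.

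Because CREB binding sites are among the known elements upstream of these genes, the 250 bases upstream of RefSeq start sites (GRCh38.p14) were searched on both strands for the CREB half-site TGACG, a palindromic full site counting as 2. RefSeq windows were found for 2 of the 3 genes, NR4A1 and NR4A3; NR4A2 was not matched. The windows shown are that of NR4A3 (chr9:99821635-99821884, plus strand, upstream of a start at 99821885) and that of the NR4A1 start at 52037715 (chr12:52037465-52037714, plus strand), whose transcript responded weakly to serum in the estimates described further on. Capitals mark half-sites.
NR4A3: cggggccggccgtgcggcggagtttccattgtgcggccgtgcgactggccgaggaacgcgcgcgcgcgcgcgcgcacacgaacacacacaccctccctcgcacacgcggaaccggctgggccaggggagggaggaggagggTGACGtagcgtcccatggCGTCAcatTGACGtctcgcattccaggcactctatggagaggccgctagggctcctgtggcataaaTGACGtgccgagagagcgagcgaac
NR4A1: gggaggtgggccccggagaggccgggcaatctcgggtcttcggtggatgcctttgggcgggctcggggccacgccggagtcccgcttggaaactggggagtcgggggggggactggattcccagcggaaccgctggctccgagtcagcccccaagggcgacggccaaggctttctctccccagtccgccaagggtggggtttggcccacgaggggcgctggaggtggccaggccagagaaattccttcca
The NR4A3 window holds 4 half-sites, beginning 109, 91, 83 and 25 bases before the start, and the NR4A1 window shown holds 0, as does that of the NR4A1 start at 52022832. Of 35116 RefSeq windows, 21.2% hold at least 1 half-site and 0.236% hold at least 4. The CArG box bound by SRF is in 1.16% of windows and the NR4A monomer site AAAGGTCA in 1.05%, and neither is in these windows. The windows upstream of the starts that held most of the estimates of NR4A1 (52051402) and NR4A3 (99826727) were not searched, so these counts describe the windows shown and not a difference between the genes. A match is a run of letters, and no binding was measured here.

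Depth was 59784425 to 136504590 gene-body counts per library, and levels are given as CPM, the usual measure of a gene's count relative to its library's total, here from gene-body counts with totals scaled by TMM in edgeR. One library stood apart: the siPFDN2 group before serum had the widest spread between its replicates (an SD over 12113 genes of 0.681 for their log2 differences, the other groups having 0.117 to 0.301), and in its replicate 2 a gene's deviation rose with GC content (Spearman's rho 0.815 across genes; the other 11 libraries lay between -0.463 and 0.124). NR4A1 is the GC-rich member, at 59.8% in its longest transcript against 47.9% for NR4A2 and 46.9% for NR4A3. PFDN2 stood at 70.9% of siControl in siPFDN2 before serum and 50.8% after it. PFDN5 stood at 58.4% of siControl in siPFDN5 before serum. After serum it stood at 95.9% there, so that the libraries labelled siPFDN5 after serum go against their label. No comparison of a target with siControl passed edgeR's test after adjustment over all genes (adjusted p 0.104 to 0.827). Of 8 epithelial and colon markers, 7 were present in every library (KRT8 at 672.5 to 1138 CPM, CDX2 at 5.57 to 14) and CDX1 was at or near 0 (at most 0.0211). The leukocyte markers PTPRC, CD3E and CD14 did not exceed 0.143 CPM, and of the endothelial and fibroblast markers VWF (0.796 to 1.74) and COL1A1 (3.96 to 15.7) were the highest, the others not exceeding 0.452.

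All 3 NR4A genes rose with serum under every siRNA, by 16.9-fold to 334-fold, and NR4A3 had the largest fold change of all 27915 genes tested in each of the 3 siRNAs. NR4A3 was nearly silent before serum. Its 2 siControl libraries were at 0.850 and 0.992 CPM, with 0.677 and 0.807 in siPFDN2 and 1.83 and 1.88 in siPFDN5, from 64 to 127 counts per library. After serum it stood at 291 and 279 CPM in siControl, at 252 and 247 in siPFDN2 and at 298 and 315 in the libraries labelled siPFDN5. Every library after serum lay far above every library before it, and the 2 libraries of each group lay close together.

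**Figure D1:**
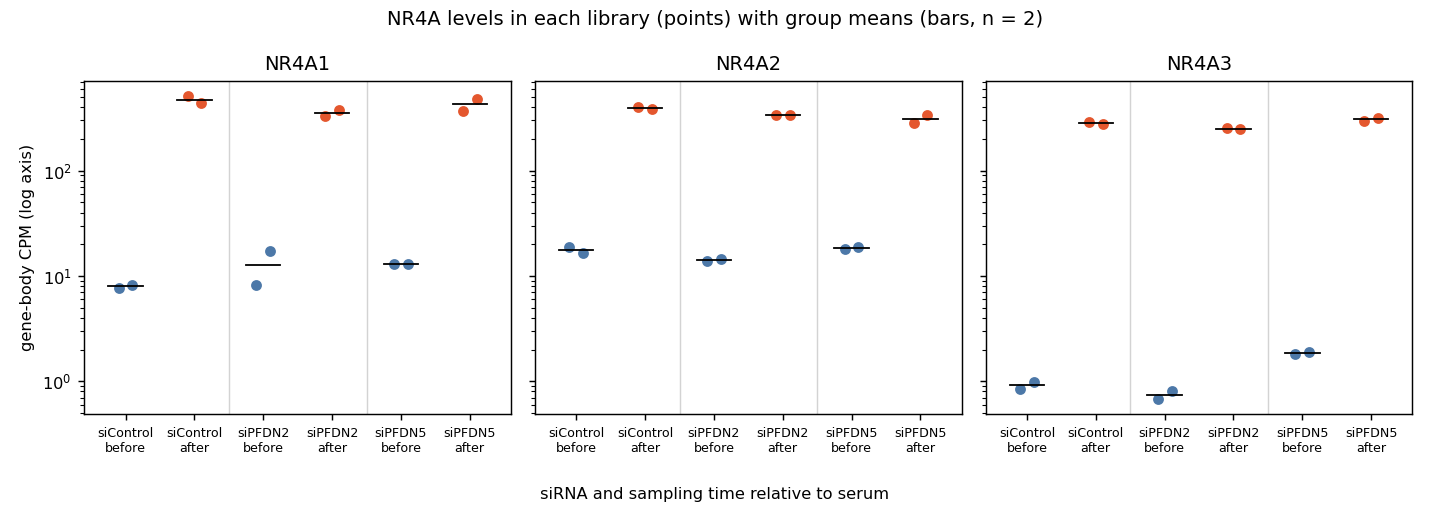
Gene-body CPM of NR4A1, NR4A2 and NR4A3 in each of the 12 libraries (points, blue before and red after serum) on a log axis, with group means of 2 libraries as bars. Every library after serum lies above every library before it for each gene, and NR4A3 lies between 0.677 and 1.88 CPM before serum.

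Before serum, the NR4A1 level was 7.72 and 8.20 CPM in siControl, 8.27 and 17.2 in siPFDN2 and 12.9 and 13 in siPFDN5. After serum it stood at 509.7 and 436 CPM in siControl, at 329 and 379 in siPFDN2 and at 369 and 484 in the libraries labelled siPFDN5. The siPFDN2 libraries before serum differed from each other by more than the siControl and siPFDN5 libraries did, the higher one being the GC-shifted replicate 2. The AC025259.3 counts moved in parallel, from 182 to 408 before serum to 7522 to 22441 after it, while NR4A1 itself had 717 to 1943 and then 19857 to 58747 counts.

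NR4A2 varied little between libraries before serum. It stood at 18.9 and 16.3 CPM in siControl, at 13.8 and 14.6 in siPFDN2 and at 17.9 and 18.8 in siPFDN5. After serum it stood at 406 and 383 CPM in siControl, at 339.6 and 338 in siPFDN2 and at 284 and 336 in the libraries labelled siPFDN5. Groups before and after serum did not overlap, as for the other members.

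In the averaged serum response (the mean over the 3 siRNAs) the log2 fold change was 8.01 (SE 0.11) for NR4A3, 5.24 (SE 0.19) for NR4A1 and 4.38 (SE 0.093) for NR4A2, with adjusted p of 7.17e-12, 1.51e-08 and 2.18e-10 by edgeR's quasi-likelihood test and Benjamini-Hochberg adjustment over 27915 genes. These 3 of 3 calls compare with 7.6% of all genes called higher. NR4A1 and NR4A2 ranked 15 and 26 by fold change among all genes. In bulk RNA, more RNA per cell and more cells with the RNA cannot be told apart.

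By siRNA, the NR4A3 response was 8.27 (SE 0.19, 95% interval 7.85 to 8.68) on the log2 scale in siControl, 8.39 (SE 0.19) in siPFDN2 and 7.37 (SE 0.18, 6.97 to 7.77) in siPFDN5. The NR4A1 response was 5.89 (SE 0.34) in siControl, 4.79 (SE 0.32) in siPFDN2 and 5.04 (SE 0.32) in siPFDN5. Without replicate 2 of siPFDN2 before serum the NR4A1 response in siPFDN2 was 5.42 (SE 0.20), a fold change over 1.5 times as large. The NR4A2 response was 4.49 (SE 0.16) in siControl, 4.58 (SE 0.16) in siPFDN2 and 4.08 (SE 0.16) in siPFDN5. All 9 were called, beside 2.47% of all genes called higher in siControl, 2.06% in siPFDN2 and 5.72% in siPFDN5. Under each siRNA NR4A3 had the largest log2 fold change of the 3 genes and NR4A2 the smallest.

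**Figure D2:**
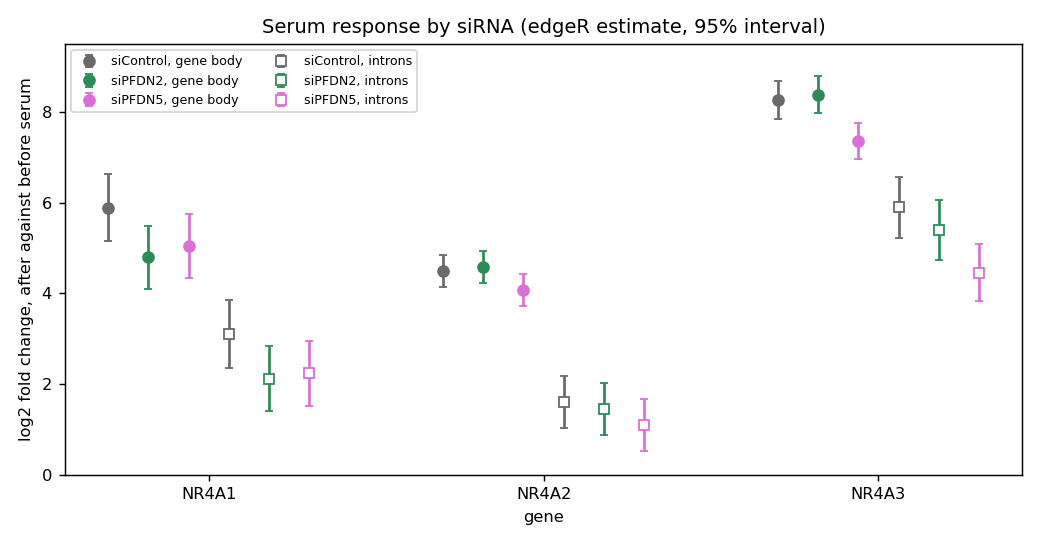
Log2 fold change after against before serum for each gene and siRNA, from gene-body counts (filled circles) and from intronic counts (open squares), with 95% intervals from edgeR. NR4A3 lies highest, between 7.37 and 8.39 in gene-body counts, and each intronic estimate lies below the gene-body estimate of the same gene and siRNA.

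Ordered by group mean, NR4A1 ran from siControl after serum (473 ± 52.0 CPM, SD, n = 2) through siPFDN5 (426.5 ± 81.2) to siPFDN2 after serum (354 ± 35.3), and then siPFDN5 (12.9 ± 0.029), siPFDN2 (12.8 ± 6.34) and siControl before serum (7.96 ± 0.341). Neighbouring groups after serum overlapped, as did siPFDN5 and siPFDN2 before serum. NR4A2 ran from siControl (394 ± 16.3) through siPFDN2 (339 ± 1.31) to siPFDN5 after serum (310.1 ± 37.2), and then siPFDN5 (18.4 ± 0.672), siControl (17.6 ± 1.79) and siPFDN2 before serum (14.2 ± 0.556), with overlap only between siPFDN5 and siControl before serum. NR4A3 ran from siPFDN5 (307 ± 11.6) through siControl (285 ± 8.74) to siPFDN2 after serum (249 ± 3.34), and then siPFDN5 (1.86 ± 0.035), siControl (0.921 ± 0.100) and siPFDN2 before serum (0.742 ± 0.092), with no overlap between neighbours. With 2 libraries a group, an absence of overlap between neighbours is a description, and the tests of these differences follow below.

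NR4A3 before serum was the one member called in a comparison of siRNAs. It was higher in siPFDN5 than in siPFDN2, with a log2 fold change of 1.32 (SE 0.16, 95% interval 0.96 to 1.67) and an adjusted p of 0.0207 by edgeR, from 115 and 127 counts against 64 and 91 in deeper libraries. In that comparison 0.0788% of all genes were called, and 0.0681% were called higher. The call was lost with scaling by library size only (adjusted p 0.0528) and in 8 of the 12 fits that left out a library, with values between 1.21 and 1.45 over all 12. Those 8 each left out 1 library of siControl or siPFDN5 before serum or of siPFDN2 or siPFDN5 after it, with adjusted p from 0.0511 to 0.303, the highest without replicate 1 of siPFDN5 before serum. Without the library that stood apart the adjusted p was 0.00113 at 1.45, with 3.16% of all genes called. NR4A1 differed by 0.02 (95% interval -0.59 to 0.63) and NR4A2 by 0.37 (0.06 to 0.68, adjusted p 0.120) between the same groups. With the library that stood apart as the only one of siPFDN2 before serum these were -0.41 (adjusted p 0.0444) and 0.34 (adjusted p 0.0363), past the threshold in a fit that called 14051 of 29336 genes (47.9%). Of the lists of early genes described further on, with 20 transcription factors and 12 CREB targets tested, 3 genes were called higher in the same comparison. EGR3 stood at 1.69 (SE 0.21, adjusted p 0.0207 by edgeR), EGR2 at 1.49 (SE 0.22, adjusted p 0.0490) and ATF3 at 1.04 (SE 0.16, adjusted p 0.0490). The last 2 lay just under the threshold, and how these calls held under the alternatives is not given here.

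Against siControl before serum, NR4A3 in siPFDN5 differed by 1.01 on the log2 scale (SE 0.16, 95% interval 0.66 to 1.36), with an adjusted p of 0.0884 by edgeR, beside 0.00716% of all genes called. Both siPFDN5 libraries lay above both siControl libraries, which with 2 libraries a group is a description. The share of all genes in that order was not counted. The difference was called with the GC trend removed (0.95, adjusted p 0.0149), by DESeq2 (1.00, adjusted p 0.000637) and without the library that stood apart (1.00, adjusted p 0.00102), where 0.709%, 1.17% and 6.96% of all genes were called. It was called equally without the other library of that group (1.00, adjusted p 0.00106) and without replicate 1 (1.00, adjusted p 0.0441) or 2 (0.98, adjusted p 0.0482) of siControl after serum, with 6.74%, 0.652% and 0.487% of all genes called. NR4A1 differed by 0.70 (SE 0.28, adjusted p 0.352), and by 0.69 when the one or the other library of siPFDN2 before serum was left out. NR4A2 differed by 0.06 (95% interval -0.25 to 0.37). Of the 3 genes, 0 passed edgeR's adjusted threshold, 2 had an unadjusted p under 0.05 and 1 was called by DESeq2.

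In siPFDN2 against siControl before serum, 0 of the 3 genes and 0% of all genes were called by edgeR. NR4A1 differed by 0.68 on the log2 scale (SE 0.28, 95% interval 0.07 to 1.29), by 0.054 without the library that stood apart, and by 1.10 (adjusted p 8.02e-05) with that library as the only one of its group, where 41.8% of all genes were called, so that this value rested on it. NR4A2 differed by -0.31 (interval -0.62 to -5.75e-05) and NR4A3 by -0.31 (interval -0.67 to 0.05). An unadjusted p under 0.05 was reached by 2 of the 3 genes, and DESeq2 called 0.

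After serum, none of the 3 genes differed from siControl past edgeR's threshold, with 0% of all genes called in siPFDN2 and 0.00358% in siPFDN5. In siPFDN2 the differences were -0.42 (95% interval -1.01 to 0.18) for NR4A1, -0.22 (-0.53 to 0.09) for NR4A2 and -0.19 (-0.49 to 0.10) for NR4A3. In the libraries labelled siPFDN5, with PFDN5 at 95.9% of siControl, they were -0.15 (-0.74 to 0.45) for NR4A1, -0.35 (-0.65 to -0.04) for NR4A2 and 0.11 (-0.19 to 0.40) for NR4A3. The NR4A2 difference had an adjusted p of 0.185 with all libraries and was called without the library that stood apart (-0.34, adjusted p 0.0205) and without the other library of that group (-0.34, adjusted p 0.0212), in fits that called 23.9% and 23.6% of all genes. An unadjusted p under 0.05 was reached by 0 of the 3 genes in siPFDN2 and by 1 in siPFDN5, and DESeq2 called 0 in each. Between siPFDN5 and siPFDN2 after serum, the 3 genes differed by 0.27, -0.13 and 0.30 (NR4A1, NR4A2, NR4A3), none of them called, beside 0.0179% of all genes; NR4A3 had an adjusted p of 0.621, of 0.0457 without the library that stood apart and of 0.0460 without the other of its group, where 4.22% and 4.15% of all genes were called.

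The serum response itself was compared between siRNAs by a contrast of the responses. Relative to siControl, the NR4A3 response in siPFDN5 differed by -0.90 on the log2 scale (SE 0.21, 95% interval -1.36 to -0.44), the NR4A1 response by -0.85 (SE 0.39, -1.70 to 0.0043) and the NR4A2 response by -0.41 (SE 0.20, -0.84 to 0.03). The adjusted p were 0.0960, 0.241 and 0.272 by edgeR, and 0% of all genes were called. With the GC trend removed the NR4A3 and NR4A1 differences were called (-0.81, adjusted p 0.0432, and -0.92, adjusted p 0.0434), in a fit that called 8.57% of all genes. Without the library that stood apart they were called as well (-0.89, adjusted p 0.00562, and -0.84, adjusted p 0.0113), among 6333 of 29034 genes (21.8%). Leaving out the other library of that group gave nearly the same (-0.89, adjusted p 0.00573, and -0.84, adjusted p 0.0113), with 21.5% of genes called, and NR4A3 was also called without replicate 2 of siControl after serum (-0.85, adjusted p 0.0445), with 10.9%. The 2 calls therefore came in fits that moved the calls of many genes. DESeq2 called NR4A3 (-0.88, adjusted p 0.0169) and not the other two, beside 6.32% of all genes, and 1 of the 3 had an unadjusted p under 0.05. For NR4A3 the level in siPFDN5 was 2.01 times that of siControl before serum and 1.08 times after it, and for NR4A1 it was 1.62 times before and 0.902 times after. For siPFDN2 the same contrast gave -1.10 (SE 0.39, adjusted p 0.582) for NR4A1, 0.09 (-0.35 to 0.53) for NR4A2 and 0.12 (-0.35 to 0.58) for NR4A3, with 0% of all genes called, 1 unadjusted p under 0.05, that of NR4A1, and 0 of the 3 called by DESeq2. The NR4A1 difference was -0.47 without the library that stood apart and -1.52 (adjusted p 7.04e-05) without the other library of that group, where 37.7% of all genes were called. Both contrasts share the siControl libraries.

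Levels of different genes were compared per kilobase of exon, a scale that depends on the length used. In siControl the means went from 1.11 to 79.6 CPM per kb for NR4A1 and from 4.48 to 121.9 for NR4A2. For NR4A3 they went from 0.113 to 52.7, the smallest gain in level but the largest in share of the family's RNA. Its share of the summed NR4A exon counts per kb lay between 1.29% and 3.51% before serum (median 2.0%) and between 20.3% and 27.3% after it (median 22.2%), a mean change of 20.6 percentage points (exact permutation test over 216 exchanges of labels within each siRNA, two-sided p = 0.00926, the smallest this design allows; 0.0109 adjusted over 13 such tests). The NR4A2 share fell by 24.6 percentage points, from 60.2% to 80.4% before serum to 42.4% to 50.7% after it (exact permutation p = 0.00926, adjusted 0.0109). The NR4A1 share lay between 17.9% and 38.5% before serum (the highest in the library that stood apart, the other 5 at 28.1% or less) and between 26.5% and 33.3% after it, and its change of 3.95 points did not pass (exact permutation p = 0.213). NR4A1 has many annotated short and upstream exons, so its union of exons (7295 bases) is long beside its main transcript (2528 bases). With estimated counts divided by each transcript's own length, the order of NR4A1 and NR4A2 after serum turned: NR4A1 held 46.5% to 54.5% and NR4A2 28.3% to 36.2%, while NR4A3 went from 0.810% to 2.68% before to 14.7% to 19.8% after serum.

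**Figure D3:**
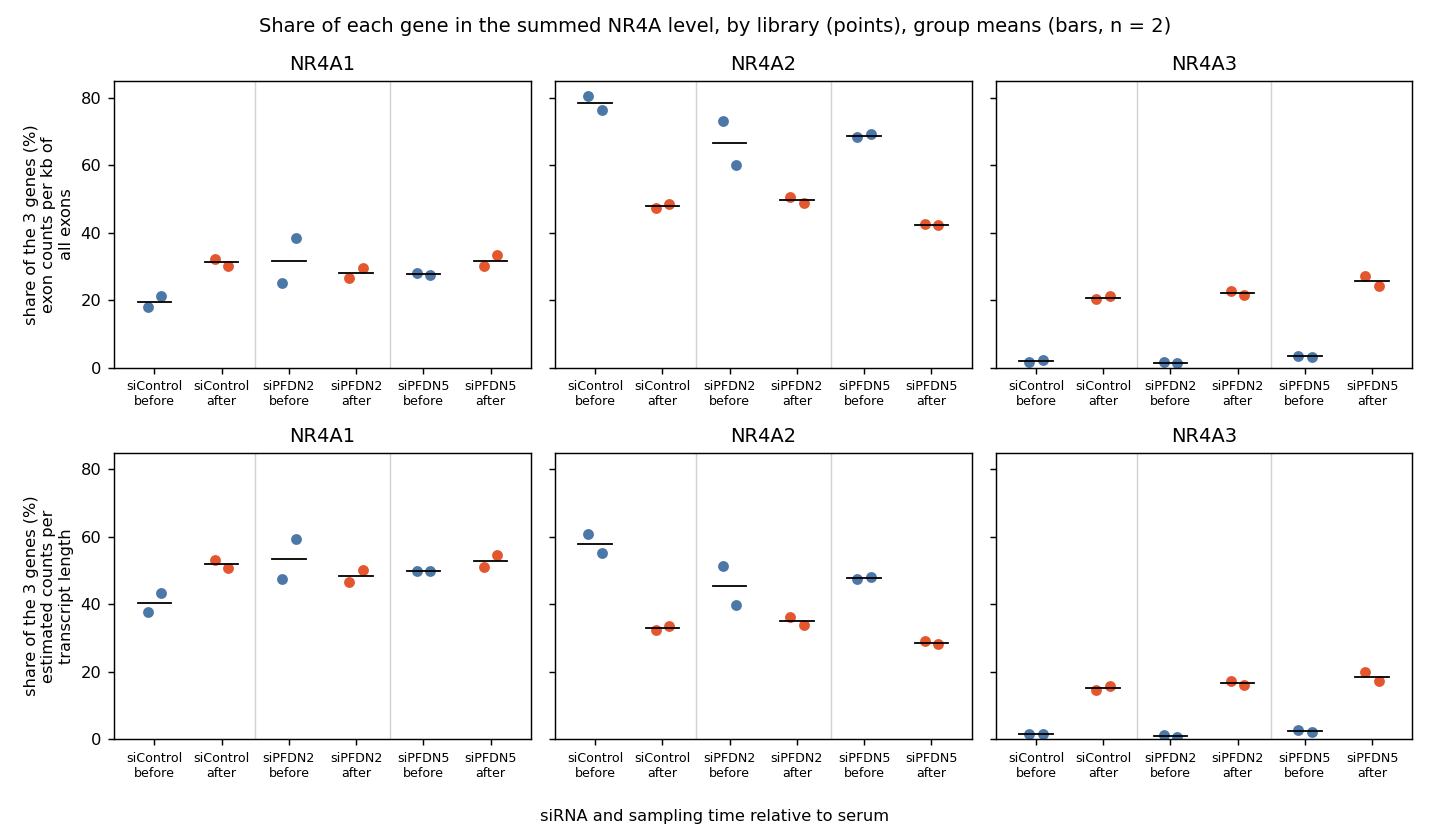
Share of each gene (%) in the summed level of the 3 NR4A genes for each library (points, blue before and red after serum; bars are means of 2), from exon counts per kb of all annotated exons (top) and from estimated counts per transcript length (bottom). The NR4A3 share is at most 3.51% before serum and at least 14.7% after it on either scale, while the order of NR4A1 and NR4A2 after serum depends on the length used.

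Intronic counts, gene-body minus exon counts, hold fragments outside the annotated exons, such as those of RNA not yet spliced. In siControl the intronic level of NR4A3 was 0.334 and 0.346 CPM before serum, with 22.7 and 18.1 after it. In siPFDN2 they stood at 0.285 and 0.390 and then at 14.9 and 13.8, and in siPFDN5 at 0.637 and 0.725 and then at 15.6 and 14.4. All 3 genes rose in introns under each siRNA. The log2 fold changes in siControl, siPFDN2 and siPFDN5 were 5.90, 5.39 and 4.46 for NR4A3, 3.10, 2.12 and 2.23 for NR4A1, and 1.60, 1.46 and 1.11 for NR4A2. All 9 were called by edgeR over 19731 genes, beside 4.93%, 2.66% and 2.52% of genes called higher. The NR4A2 call was lost in siControl without replicate 2 before serum (1.5, adjusted p 0.0692), in siPFDN2 without replicate 2 before serum (1.30, adjusted p 0.0783) or replicate 1 after it (1.30, adjusted p 0.0799), and in siPFDN5 without replicate 1 before serum (1.14, adjusted p 0.0572) or replicate 2 after it (1.01, adjusted p 0.0607).

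The NR4A3 intronic response in siPFDN5 differed from that in siControl by -1.44 on the log2 scale (SE 0.39, adjusted p 0.0150 by edgeR). Its side before serum rests on few intronic counts, 31 and 37 in the siControl libraries and 40 and 49 in those of siPFDN5. In that contrast 31.8% of all genes were called, and the median over all genes was -0.84. The intronic share of all gene-body counts moved with it: it was 22.8% and 25.9% in siPFDN5 before serum, 15% and 17.3% in siControl before serum, and between 14.8% and 20.9% in the libraries after serum. With TMM scaling computed on the intronic counts the NR4A3 difference was -0.63 (adjusted p 0.224), and it was called in 6 of the 12 fits without a library. The other 6 each left out 1 of the siControl libraries before serum or of the siPFDN5 libraries before or after it, with adjusted p from 0.0545 to 0.0690. The part of the library-wide share in this difference was not tested.

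Exons rose more than introns, so the intronic share of each gene fell under every siRNA. It fell from 34.8% to 48.4% of gene-body counts before serum to 4.57% to 7.78% after it for NR4A3, from 11.4% to 17.9% to 1.77% to 3.24% for NR4A1, and from 16.4% to 21.7% to 1.97% to 2.77% for NR4A2. The NR4A3 shares before serum rest on 27 to 49 intronic counts per library. No library after serum reached the lowest library before it (exact permutation p = 0.00926 for each, adjusted 0.0109). In a joint fit of exon and intron counts, the averaged serum change of introns relative to exons was -3.40 on the log2 scale (SE 0.16) for NR4A3, -3.25 (SE 0.15) for NR4A2 and -2.97 (SE 0.15) for NR4A1, against a median of -0.28 over 17390 genes. All 3 were called, as were all 9 changes within an siRNA, between -2.92 and -3.78. Over all genes 24.5% were called in the averaged response, 0.978% in siControl, 0.592% in siPFDN2 and 44.7% in siPFDN5. None of the 3 genes differed between siRNAs by edgeR in this measure (adjusted p 0.272 to 0.922; unadjusted p under 0.05 for 0 of 6, and DESeq2 was not run on it), beside 33.1% of all genes for siPFDN5 and 0% for siPFDN2.

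**Figure D4:**
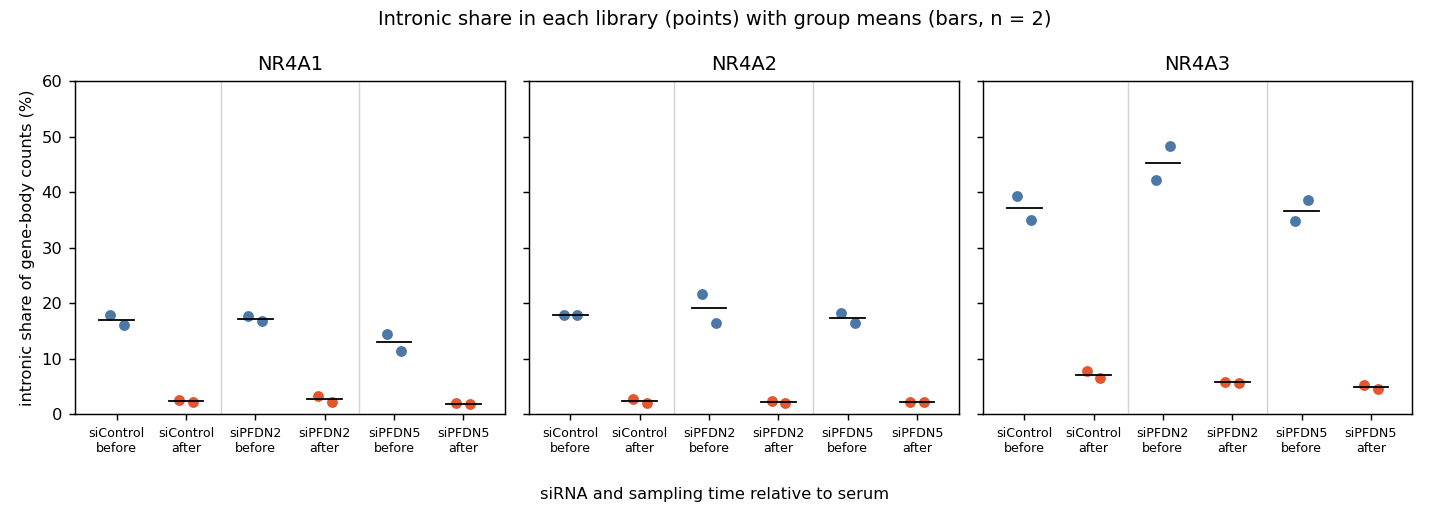
Intronic share of gene-body counts (%) of each gene in each of the 12 libraries (points, blue before and red after serum; bars are means of 2). The share falls after serum in every group, to at most 7.78% for NR4A3 and at most 3.24% for NR4A1 and NR4A2.

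Estimated counts per transcript gave a weaker serum response at the upstream starts of NR4A1 and NR4A2 than at their main starts. The main transcript was NR4A1-204 for NR4A1 (start at 52051402), NR4A2-201 for NR4A2 (156332716) and NR4A3-201 for NR4A3 (99826727), with 80.1%, 90.0% and 78.4% of each gene's estimates over all libraries. Libraries after serum made up most of these sums and so weighed most in this choice. Before serum the shares were 38.9% to 58.3%, 36.7% to 82.9% and 15.6% to 78.8%. Upstream and downstream are counted from the start of the main transcript. The 9 NR4A1 transcripts that start further upstream, between 52022832 and 52043839, held 29.1% to 40.0% of the gene's estimates before serum and 1.99% to 3.17% after it (exact permutation p = 0.00926, adjusted 0.0109). From the main start NR4A1 rose 115-fold in siControl, 54.0-fold in siPFDN2 and 50.7-fold in siPFDN5. From the upstream starts the ratios were 4.46, 2.08 and 2.63, and from starts downstream of the main one 8.69, 6.54 and 3.33. The siPFDN2 ratios depend on the library that stood apart. Before serum it had 923 estimated counts from the main start and 674.5 from upstream starts, the other siPFDN2 library having 397.9 and 245.2. NR4A1-206, which starts at 52037715 behind the second window printed above, had a log2 fold change of 1.42 (SE 0.14, adjusted p 0.00236 by edgeR) in the averaged response, set beside 6.21 (SE 0.17, adjusted p 2.42e-06) for NR4A1-204.

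The NR4A2 transcript from the far upstream start at 156342348 (NR4A2-204) held 9.83% to 26.6% of that gene's estimates before serum and 0.571% to 1.86% after it (exact permutation p = 0.00926, adjusted 0.0109). Its averaged log2 fold change of 0.77 (SE 0.25) was not called (adjusted p 0.217), whereas NR4A2-201 rose by 5.01 (SE 0.22, adjusted p 3.04e-05). The highest value before serum, 26.6%, was in the library that stood apart, and the other 5 libraries lay between 9.83% and 15.1%. NR4A3-201 rose by 9.30 (SE 0.44) and NR4A3-204, from the start at 99821855, by 7.94 (SE 0.37), with adjusted p of 4.76e-05 and 4.60e-05. Among 89619 transcripts tested, 1.32% were called in the averaged response and 1% were called higher. The share of NR4A3-201 lay between 15.6% and 78.8% before serum and between 71.3% and 82.1% after it, and since NR4A3 had 37 to 78 exon counts per library before serum its transcript shares there were poorly determined. Estimates divide reads that transcripts share, and start sites were not measured directly.

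**Figure D5:**
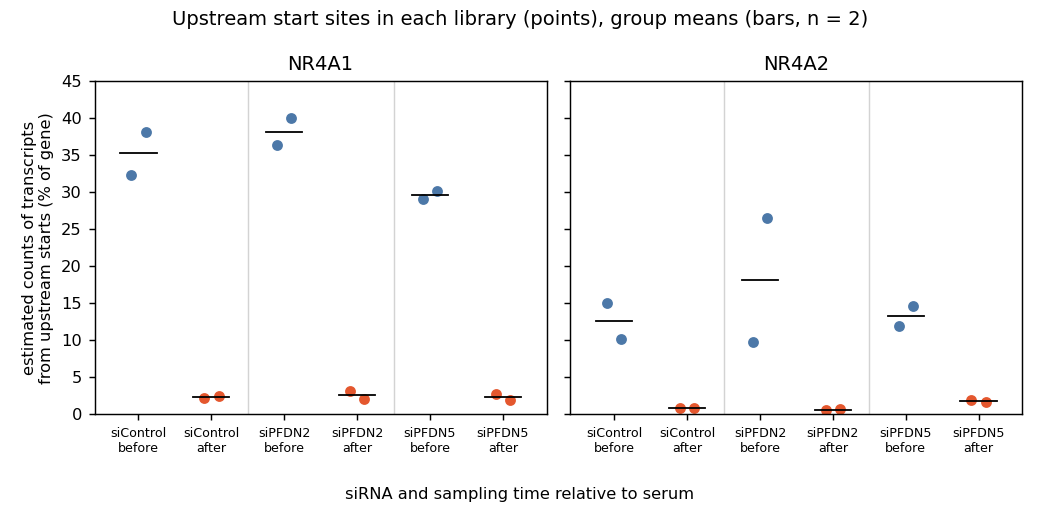
Estimated counts of transcripts from upstream starts, in percent of the gene's estimates, for NR4A1 and NR4A2 in each library (points, blue before and red after serum; bars are means of 2). For NR4A1 the share is at least 29.1% in every library before serum and at most 3.17% after it, and for NR4A2 the 2 sets do not overlap either.

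The genes most like each member were found as those with the smallest root mean square (RMS) difference between log2 CPM profiles, each centred on its own mean, over the 12 libraries and 15967 genes. For NR4A1 the nearest was AC025259.3 (RMS 0.261, Pearson's r 0.999), the gene inside it, followed by AC037198.2, CYR61, ENSG00000259279 and THBS1 (RMS 0.361 to 0.419). For NR4A2 they were ATF3 (RMS 0.326, r 0.990), a stress-induced transcription factor, SIK1, AC055854.1, NUAK2 and DUSP5 (RMS 0.405 to 0.468). For NR4A3 they were CTGF (RMS 0.856, r 0.997), a secreted matrix protein, FOSB, CYR61, CXCL8 and THBS1 (RMS 0.994 to 1.14). Other annotated genes overlap THBS1 (3), AC055854.1 (2), AC037198.2, ENSG00000259279, CTGF and FOSB (1 each). Their counts can therefore hold reads of those genes, and neighbours that overlap are not separate likenesses. NR4A1 and NR4A2 lay 0.572 apart (r 0.990), NR4A1 and NR4A3 1.42 (r 0.992), and NR4A2 and NR4A3 1.84 (r 0.996). By RMS, which also counts the size of the serum step, no member was among the 5 nearest of another. By r the members ran about as closely together as with their nearest genes. These likenesses rest mostly on the step between the 6 libraries before and the 6 after serum, and the r values of neighbours were 0.980 or higher.

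Calls among the rest of the nuclear receptor family went in both directions. Of the other 45 nuclear receptors 37 were tested, and 4 rose and 4 fell in the averaged serum response. Of all genes 14.9% were called, 7.6% higher and 7.31% lower, and these counts are too near those shares to be a result about the family. The median of the 37 was -0.16 against -0.025 over all genes. NR2F2 (COUP-TFII) rose by 0.88 on the log2 scale (SE 0.090) and ESRRG by 0.72 (SE 0.20), while ESRRB fell by 0.67 (SE 0.17) and RARB fell by 0.60 (SE 0.17). NR3C1, the glucocorticoid receptor, rose by 0.46 (SE 0.14). In siControl alone NR2F2 was the only one of the 37 called. ESRRG and RARB were low, with group means of 0.16 to 0.55 and 0.26 to 0.67 CPM. In siPFDN2 they went from 0.32 to 0.33 and from 0.35 to 0.39 CPM with serum. ESRRB went from 2.59 to 2.38 CPM in siControl. Scaling by library size only moved the median of all genes to -0.17. Under it the averaged response had 1 receptor higher and 13 lower, and none of the 8 calls changed sign under it, upper-quartile scaling or DESeq2. Of the retinoid X receptors, partners of NR4A1 and NR4A2, 2 of 3 were tested and 0 were called by edgeR in the averaged response (median -0.39). There 2 had an unadjusted p under 0.05 and 1 was called by DESeq2. Their median was -0.079 in siControl, -0.94 in siPFDN2 and -0.15 in siPFDN5. The averaged value thus came mostly from siPFDN2, whose group before serum holds the library that stood apart.

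Factors upstream of the family were mixed, at 4 of 18 higher and 2 lower (median 0.07), beside 7.6% of all genes called higher and 7.31% lower. SRF, which serum activates, rose by 1.99 (SE 0.12), CREM, whose locus also makes the repressor ICER, by 1.76 (SE 0.11), and MEF2D by 0.83 (SE 0.15). The CREB coactivator gene CRTC1 fell by 0.64 (SE 0.19) in the averaged response but hardly moved in siControl (-0.012, SE 0.33). Its group means went from 22.8 to 9.94 CPM in siPFDN2, whose group before serum holds the library that stood apart. In siPFDN5 they went from 12.7 to 7.74. CREB1, the CREB gene itself, was not called (-0.21, SE 0.12). With scaling by library size only the list had 4 higher and 7 lower, and all genes together 1291 higher and 4429 lower.

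Genes of the same early class moved with the NR4A genes in larger numbers. Of 14 other CREB target genes 12 were tested and 10 rose (median 1.74), beside 7.6% of all genes called higher and a median of -0.025, led by FOSB at 6.20 (SE 0.21), ATF3 at 4.48 (SE 0.10), SIK1 at 3.92 (SE 0.12) and DUSP1 at 2.75 (SE 0.10). Of 20 other immediate-early transcription factors 19 rose (median 2.24), beside the same 7.6%, led by FOSB and followed by EGR3 at 5.75 (SE 0.13) and EGR2 at 4.89 (SE 0.13), and IER5 was the exception (0.07, SE 0.093). FOS, FOSB, ATF3, CREM and SRF each stand in more than 1 of these lists, and the lists were chosen as known early genes, so their direction is not independent evidence. NR4A3 at 8.01 lay above every gene of both lists and NR4A1 and NR4A2 fell within their range.

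Of 18 genes reported elsewhere as NR4A targets 11 were tested and 0 were called by edgeR in the averaged response (median 0.16), with 0 at an unadjusted p under 0.05 and 0 called by DESeq2. With 14.9% of all genes called, 0 of 11 is too near that share to be a result about these genes. Their averaged values lay between -0.18 (TNFSF10, SE 0.24) and 0.27 (FBP1, SE 0.29). In siControl and in siPFDN2 alone 0 were called. In siPFDN5 alone 1 of the 11 was called higher, with 3 at an unadjusted p under 0.05 and 2 called by DESeq2. There 5.72% of all genes were called higher, so that 1 call is no result about the list. Protein levels and later times were not measured.

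The 3′ untranslated regions of 1 transcript of each gene (NR4A1-206, NR4A2-201 and NR4A3-204) hold the AU-rich pentamer ATTTA, a feature of short-lived early messages, 3 times in NR4A1 (557 bases), 4 in NR4A2 (1312) and 10 in NR4A3 (3024). Of 15576 genes, 43.2%, 35.9% and 13.5% have at least as many, the median being 2. Per kb the counts are 5.39, 3.05 and 3.31, against a median of 1.54, and 7.23%, 25.6% and 22.1% of genes have at least that density. RNA stability was not measured.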

How the data were processed

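RNA from 12 libraries of HCT116 cells was read as deposited. Per the labels' protocols, siRNA was delivered with Oligofectamine, total RNA was treated with DNase, and libraries were made by random priming after depletion of 18S rRNA. Per the file headers, the authors counted fragments per gene with featureCounts 1.5.2 against the Ensembl release 87 annotation of GRCh38, once over gene bodies and once over exons, assigning a fragment to every gene it overlaps and setting no strand. These are raw counts per gene. The submitters' processing notes name HISAT2, featureCounts and kallisto 0.43, with no roles given. The authors' deposited values per transcript are estimated counts, since they are not whole and sum to 44071628 to 99082827 per library, and they were rounded before testing. Each count table also holds 6 sample columns that match no sample here and were not used.

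The 3 members and the gene lists were chosen with earlier results of these data known. The named genes are the 3 members, the 5 genes most like each, and in each list up to 4 called genes with the largest change plus those needed for their role. Gene-body counts were tested in R 4.3.3 with edgeR 4.0.16 (TMM scaling, filterByExpr, robust quasi-likelihood fit of 6 group means, two-sided), with Benjamini-Hochberg adjustment over 27915 genes and a threshold of 0.05 in each of 12 comparisons. Intronic counts are gene-body minus exon counts, scaled by the gene-body factors. Single shares were compared by exact permutation. The GENCODE 29 annotation named 57447 of 58051 genes, and gave transcript starts and lengths. DESeq2 1.42.0, other scalings, other filters and tables, removal of GC trends, a replicate block and the omission of each library were tried as alternatives, of which the intronic differences between siRNAs, the start-site shares and the estimates per transcript length were added after seeing the data. The test was tried on simulated data first. Depth was 59784425 to 136504590 gene-body, 46158398 to 114454288 exon and 44071628 to 99082827 estimated counts per library. NR4A3 before serum rests on 64 to 127 gene-body counts per library, and every test rests on 2 libraries per group.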

Additional observations from a re-analysis of the deposited data

Results flagged for a closer look

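The intronic serum response of NR4A3 differed between siPFDN5 and siControl in a test of the difference itself, at -1.44 on the log2 scale (SE 0.39, adjusted p 0.0150 by edgeR over 19731 genes). NR4A3 introns rose by 5.90 in siControl, where both libraries after serum lay above both before it, and by 4.46 in siPFDN5, where the same held. Before serum these rest on 31 and 37 intronic counts in siControl and 40 and 49 in siPFDN5. In this contrast 31.8% of all genes were called and 31.6% were called lower, and the median of all genes was -0.84. The intronic share of all counts was 22.8% to 25.9% in siPFDN5 before serum and 14.8% to 20.9% in the other 10 libraries. The difference ranged from -1.59 to -1.27 over the 12 fits that left out a library, 6 of them past the threshold, and was -0.63 (adjusted p 0.224) with TMM scaling of the intronic counts.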

How the results depend on the processing

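All 12 serum responses of the 3 genes on gene-body counts kept their direction and their call under every alternative run, the 12 fits without a library included. The comparisons of siRNAs did not. With DESeq2, NR4A3 was called for the response difference of siPFDN5 from siControl (-0.88, adjusted p 0.0169) and before serum (1.00, adjusted p 0.000637). With GC trends removed the same 2 were called (-0.81 and 0.95, adjusted p 0.0432 and 0.0149), as was the NR4A1 response difference (-0.92, adjusted p 0.0434). With no filter, NR4A1 was called for the response differences of siPFDN2 (-1.14) and siPFDN5 (-0.80) and before serum in siPFDN2 (0.74) and siPFDN5 (0.66), NR4A3 was called before serum in siPFDN5 (0.96), and NR4A1 between siPFDN5 and siPFDN2 before serum turned to -0.086. With library size only, the NR4A3 call between siPFDN5 and siPFDN2 before serum was lost (1.22, adjusted p 0.0528), and 5 uncalled values turned: NR4A1 in that comparison (-0.086), the siPFDN2 response differences of NR4A2 (-0.048) and NR4A3 (-0.026), NR4A2 in siPFDN5 before serum (-0.020) and NR4A3 in siPFDN5 after serum (-0.054). With TMM of the intronic table, the NR4A2 intronic differences of siPFDN2 and siPFDN5 turned to 0.16 and 0.33 and that of NR4A3 in siPFDN5 was no longer called (-0.63). The cause of these changes was not tested.

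The labels do not say that replicate numbers pair the libraries, and the 15 correlations of replicate deviations between groups ran from -0.322 to 0.592. A replicate block changed no call of the 3 genes, and with the GC trend removed as well NR4A3 before serum in siPFDN5 was called (0.96, adjusted p 0.0238); calls over all genes in siControl went from 800 to 694 with the block.

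Without 1 library at a time, response differences on gene-body counts ran from -1.52 to -0.47 (NR4A1, siPFDN2), -1.04 to -0.62 (NR4A1, siPFDN5), -1.01 to -0.78 (NR4A3, siPFDN5) and -0.0066 to 0.20 (NR4A2, siPFDN2). Before serum against siControl they ran from 0.054 to 1.10 (NR4A1, siPFDN2), 0.65 to 0.74 (NR4A1, siPFDN5), -0.047 to 0.16 (NR4A2, siPFDN5) and 0.90 to 1.12 (NR4A3, siPFDN5), and after serum in siPFDN5 from -0.35 to 0.061 (NR4A1) and -0.47 to -0.20 (NR4A2). Between siPFDN5 and siPFDN2 they ran from -0.41 to 0.64 (NR4A1), 0.33 to 0.41 (NR4A2) and 1.21 to 1.45 (NR4A3) before serum and 0.26 to 0.34 (NR4A3) after it. NR4A2 intronic responses ran from 1.33 to 1.83 (siControl), 1.30 to 1.63 (siPFDN2) and 1.01 to 1.19 (siPFDN5), its siPFDN2 difference from -0.37 to 0.13, and the NR4A3 siPFDN5 difference from -1.59 to -1.27. Serum changes in the main-transcript share ran from 10.1 to 25.5 points (NR4A2) and 16.6 to 33.9 (NR4A3), and in the NR4A2 main-start share from 9.95 to 19.5. A fit without 1 library leaves its group with a lone library, assumed to vary like the other groups.

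Calls over all genes moved more than those of the 3 genes. For the serum response in siControl, siPFDN2, siPFDN5 and their average they were 800, 910, 3407 and 4163; with DESeq2 1204, 3132, 4583 and 5056; with no filter 1627, 5294, 5341 and 6741; with GC trends removed 1779, 1880, 8180 and 7927; with block and GC trend 1523, 1580, 7395 and 7251; with exon counts 529, 630, 1050 and 2729; with summed estimates 347, 422, 776 and 1671. For the response differences of siPFDN2 and siPFDN5 they were 0 and 0, with DESeq2 2 and 1764, with no filter 663 and 2413, and with GC trends removed 0 and 2392. Between siPFDN5 and siPFDN2 before serum they were 22, with DESeq2 3870, with no filter 5552, with GC trends removed 1803, with exon counts 11 and with library size only 3. Against siControl in siPFDN5 they were 2 before and 1 after serum, with DESeq2 328 and 1944, with no filter 1032 and 2630, and with GC trends removed 198 and 3713. With library size only the averaged response had 1291 higher and 4429 lower calls, set beside 2122 and 2041.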
